A study of Mus musculus with 12 samples.

Results

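Reg3b, Reg3g, Pigr, Slpi and Dmbt1 encode secreted or secretion-linked proteins that defend mucosal surfaces. They were followed in organoids of mouse bile duct epithelium. The 5 genes were the rows of the count table whose identifiers carry these symbols, 5 of 53700 identifiers in all, and each of the 5 passed the filter on low counts. They were chosen on their levels across the genotype and region groups of these same libraries. Their levels and differences are therefore given as a description, and no test is used in their support.

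RNA was sequenced from 12 organoid cultures of 6 mice, with 1 culture from the hilum of the liver, where the large ducts lie, and 1 from the liver periphery of each mouse. The wild-type mice (WT, Jag1 +/+) were numbered 1221, 1223 and 1225. The mutant mice (Jag1 Ndr/Ndr) carried 2 copies of Ndr, a missense allele of the Notch ligand gene that is used as a model of Alagille syndrome, a disorder of the bile ducts, and were numbered 1219, 1220 and 1224. Each of the 4 groups of genotype and region held 3 libraries, all of cultures at passage 5. Strain, age, sex and treatment are not among the labels used here. Each culture is the outgrowth of 1 animal's tissue, without the immune cells, microbes or bile flow of the liver. A missense allele need not alter the level of its own RNA, so Jag1 does not check the labels. In hilar cultures its level was 120 ± 59.3 CPM for WT mice and 141 ± 53.3 CPM for Ndr mice (mean and SD, n = 3). The peripheral means of Jag1 were 128 ± 44.9 and 103 ± 44.8 CPM.

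Mucosal epithelium keeps microbes at a distance with secreted proteins, and the ducts of the biliary tree do so as they carry bile to the gut. Reg3b and Reg3g encode small C-type lectins of the regenerating-islet family. Reg3g binds peptidoglycan and kills Gram-positive bacteria, and both genes are well known as inducible genes of the intestine, switched on through IL-22 and STAT3 and through MyD88. Pigr encodes the polymeric immunoglobulin receptor, which carries IgA across the epithelium and is released with it as secretory component. Slpi encodes secretory leukocyte protease inhibitor, a WFDC protein that blocks neutrophil elastase and has antimicrobial activity. Dmbt1 encodes a large scavenger receptor cysteine-rich glycoprotein of mucosal secretions that binds and agglutinates bacteria, and it is a known product of reactive bile ducts.

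The start regions of the genes are shown first because the gene pairs that varied together in these libraries differ in how alike their start regions are. RefSeq windows on GRCm38.p6, from 250 bases before to 50 bases after the annotated start, were found for 4 of the 5 genes. They lie on chr6:78370635-78370934 (plus strand, Reg3b), chr6:78468825-78469124 (minus strand, Reg3g), chr1:130826434-130826733 (plus strand, Pigr) and chr2:164356458-164356757 (minus strand, Slpi). Capitals in the Reg3b and Reg3g windows mark TATAAA on the plus strand of the gene and the longest run of bases that the Reg3b and Reg3g windows share. Capitals in the Pigr and Slpi windows mark CACGTG, the E-box bound by factors of the USF type.
Reg3b: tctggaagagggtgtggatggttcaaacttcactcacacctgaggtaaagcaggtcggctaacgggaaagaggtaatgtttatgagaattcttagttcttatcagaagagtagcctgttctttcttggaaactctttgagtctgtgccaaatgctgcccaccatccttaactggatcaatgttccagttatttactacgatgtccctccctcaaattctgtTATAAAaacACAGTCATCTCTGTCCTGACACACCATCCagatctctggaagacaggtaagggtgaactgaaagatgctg
Reg3g: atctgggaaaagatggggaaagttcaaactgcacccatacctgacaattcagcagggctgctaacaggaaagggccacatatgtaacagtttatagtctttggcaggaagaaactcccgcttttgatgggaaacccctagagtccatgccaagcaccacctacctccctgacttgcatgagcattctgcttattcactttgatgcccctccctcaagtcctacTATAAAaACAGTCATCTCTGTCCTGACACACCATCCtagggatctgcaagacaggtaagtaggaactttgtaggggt
Pigr: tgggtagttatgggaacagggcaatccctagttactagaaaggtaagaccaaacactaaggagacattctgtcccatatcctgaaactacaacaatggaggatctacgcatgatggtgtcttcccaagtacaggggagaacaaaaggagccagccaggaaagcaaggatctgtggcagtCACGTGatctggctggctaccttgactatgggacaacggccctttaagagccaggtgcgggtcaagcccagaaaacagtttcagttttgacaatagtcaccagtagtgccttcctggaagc
Slpi: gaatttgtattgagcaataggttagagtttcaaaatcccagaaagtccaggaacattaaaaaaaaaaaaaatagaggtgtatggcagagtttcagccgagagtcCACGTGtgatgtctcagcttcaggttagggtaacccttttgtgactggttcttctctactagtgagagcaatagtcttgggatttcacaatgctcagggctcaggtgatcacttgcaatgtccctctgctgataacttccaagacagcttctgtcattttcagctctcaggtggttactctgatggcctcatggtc

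The Reg3b and Reg3g windows were identical at 207 of 296 aligned bases (69.9%). Their longest shared run was 29 bases, and it covered the annotated start at the same place in both genes, from 20 bases before it to 9 bases after it. The Pigr and Slpi windows were identical at 150 of 284 aligned bases (52.8%), with a longest shared run of 8 bases. The comparisons of a Reg3 window with that of Pigr or Slpi gave 51.6% to 58.2%. The letters TATAAA began 29 bases before the start of Reg3b and 27 bases before that of Reg3g, where a TATA box usually lies. They were searched on both strands, as were all motifs here, and 13.6% of 32817 windows held them. CACGTG was found 71 bases before the start of Pigr and 146 bases before that of Slpi, and in neither Reg3 window, while 7.15% of all windows held it. The STAT motif TTCNNNGAA was found 129 bases before the start of Reg3b and after the start of Pigr, against 8.29% of all windows. The letters TGGGAA, bound by the Notch effector RBPJ, were found in the windows of Reg3g and Pigr, against 25.6% of all windows. The Reg3g match 124 bases before the start overlaps the only match to the NF-kB motif among the 4 windows, which 4.5% of all windows held. The AP-1 motif TGANTCA was in none of the 4 windows and in 7.81% of all windows. A match is a run of letters and was not tested as a binding site.

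Levels are in CPM (counts scaled to a common library total, scaled by the TMM method of edgeR). The total count was 6708822 to 16030880 per library, and 3 reads were worth 0.183 to 0.463 CPM. Reg3b and Reg3g were high in the hilar cultures of all 3 Ndr mice. In both regions Pigr and Slpi were below WT in every Ndr culture. Dmbt1 overlapped between groups in every comparison.

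**Figure D1:**
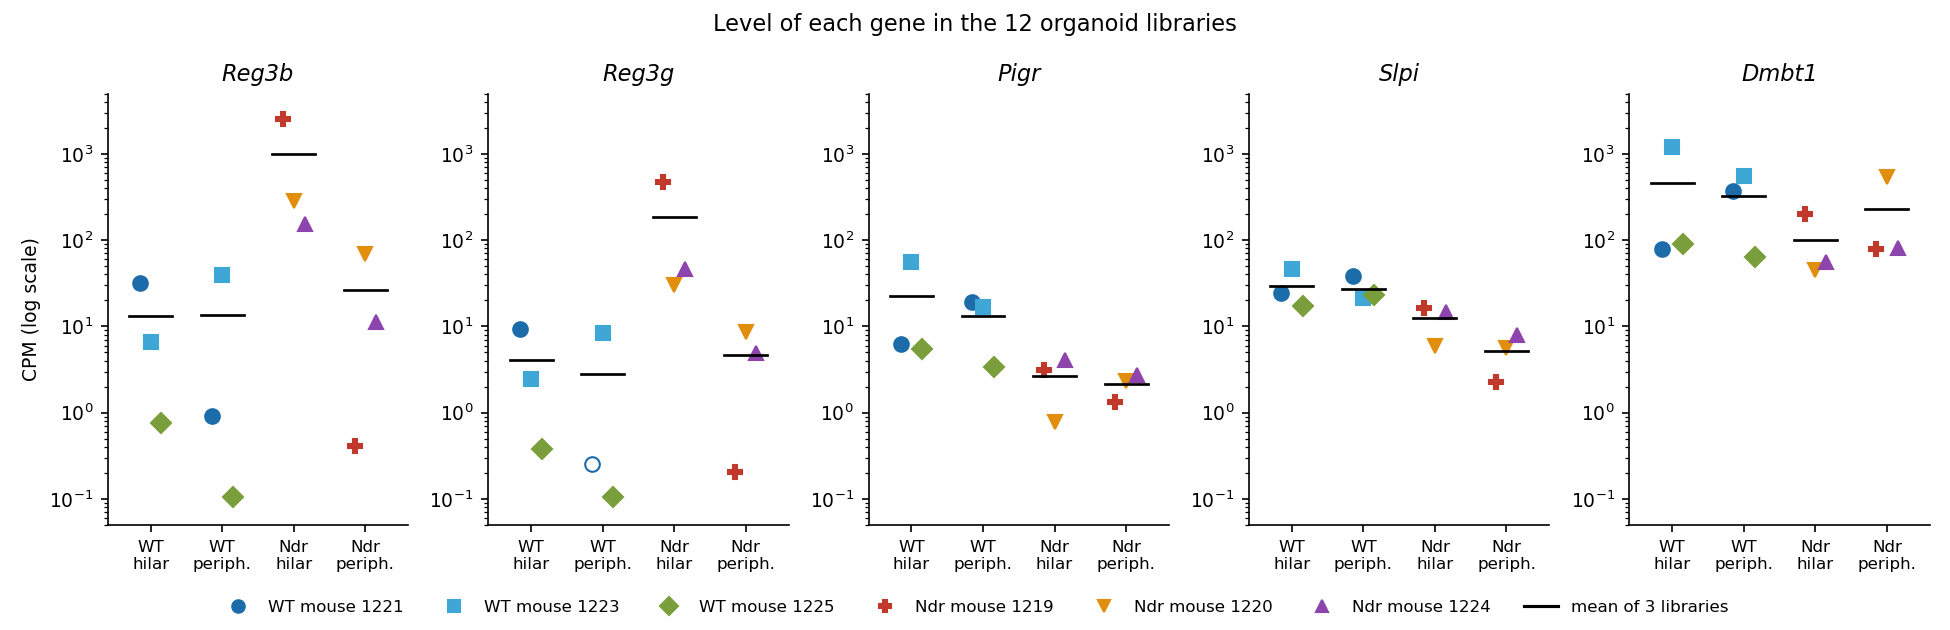
Level of each gene in CPM (log axis) in the 12 libraries, by genotype and region; each point is 1 library, its colour and shape give the mouse, and black lines are means of 3 libraries. The open circle marks the library with 0 Reg3g reads, drawn at the CPM of 3 reads. Reg3b and Reg3g are above every WT hilar library in all 3 Ndr hilar libraries, Pigr and Slpi are below WT in both regions, and Dmbt1 overlaps in all groups.

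In edgeR's quasi-likelihood test with Benjamini-Hochberg adjustment over all genes, an adjusted p under 0.05 was reached by 0 of the 5 genes in any of the 7 comparisons, and by 0% of all genes tested (0 of 15014, or 0 of 15401 for mouse totals). Since the rule used these contrasts, the counts that follow describe the genes and nothing is read from them. At an unadjusted p under 0.05 there were 4 of the 5 genes for genotype in hilar cultures (6.54% of all genes), 2 for genotype in peripheral cultures (2.92%) and 4 for genotype over mouse totals (5.42%). For region there were 0 in WT (0.506%), 3 in Ndr (10.3%) and 1 over both genotypes (6.07%), and for the interaction 0 (3%). DESeq2 called 0 of the 5 for genotype in hilar cultures (0.281% of all genes) and 1 in peripheral cultures, Slpi (0.0401%). It called 2 for mouse totals, Pigr and Slpi (0.735%). It called 0 of the 5 for region in WT (0%), in Ndr (0.481%) and over both genotypes (0.02%), and 0 for the interaction (0.0267%).

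The 3 libraries of 1 group lay wholly above or below those of the other for some of the genes. Between genotypes in hilar cultures, 2 of the 5 genes were higher in every Ndr library (4.57% of all genes) and 2 were lower (4.18%). In peripheral cultures 0 were higher (5.41%) and 2 were lower (3.61%). In mouse totals 2 were higher (5.49%) and 2 were lower (5.78%). In Ndr cultures 2 were higher in every hilar than in every peripheral library (7.49%) and 0 were lower (7.93%). In WT cultures 0 were higher (2.94%) and 0 were lower (2.6%).

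Reg3b (ENSMUSG00000071356, chromosome 6) was the gene with the widest range. In the Ndr hilar cultures it stood at 2551 CPM in mouse 1219, 287 in 1220 and 153 in 1224. In the WT hilar cultures it stood at 32.3 CPM in mouse 1221, 6.64 in 1223 and 0.754 in 1225. The lowest Ndr hilar value was above the highest WT hilar value, and within each group the libraries were spread over more than an order of magnitude. The means were 997 ± 1348 and 13.2 ± 16.8 CPM (SD, n = 3), a log2 difference of 6.20 (SE 2.21). Mouse 1219 carries much of this: without it the log2 difference was 4.01.

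In peripheral cultures Reg3b did not separate the genotypes. The Ndr libraries held 0.413 CPM (1219, 4 reads), 68.2 (1220) and 11.2 (1224), and the WT libraries 0.924 (1221), 39.1 (1223) and 0.106 (1225, 1 read). Both groups ran from a few reads to well over 10 CPM. The means were 26.6 ± 36.4 and 13.4 ± 22.3 CPM, with a log2 difference of 1.01 (SE 1.82) that turned to -1.18 without the peripheral library of mouse 1220. The mouse with the highest hilar level, 1219, had the lowest peripheral level among the Ndr mice.

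Reg3g (ENSMUSG00000030017, chromosome 6), the second lectin gene, followed Reg3b at a lower level. In Ndr hilar cultures it stood at 473 CPM (1219), 30.0 (1220) and 46.7 (1224), against 9.39 (1221), 2.47 (1223) and 0.377 (1225, 3 reads) in WT. Again every Ndr hilar library was above every WT hilar library. The means were 183 ± 251 and 4.08 ± 4.72 CPM, a log2 difference of 5.40 (SE 1.75), or 3.18 without the hilar library of mouse 1219. The peripheral Ndr libraries held 0.207 CPM (1219, 2 reads), 8.68 (1220) and 4.94 (1224), and the WT libraries 0 (1221, 0 reads), 8.37 (1223) and 0.106 (1225, 1 read). The peripheral groups overlapped, with a log2 difference of 0.77 (SE 1.63) that became -0.05 without the Ndr library of mouse 1220.

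Reg3b took most of the reads of the pair wherever both genes were well counted. Of the reads on either gene, Reg3b took 84.4% in the hilar library of mouse 1219 (exact 95% binomial interval 83.9 to 84.8%), 90.5% in that of 1220 (89.3 to 91.7%) and 76.6% in that of 1224 (74.4 to 78.6%). In peripheral Ndr cultures it took 88.7% in mouse 1220 and 69.3% in mouse 1224. In the 3 WT libraries with the most reads on the pair, it took 77.5% (1221 hilar), 72.9% (1223 hilar) and 82.4% (1223 peripheral). The share thus differed between mice beyond counting error. Of the Ndr mice it was highest in mouse 1220 in hilar cultures, and in peripheral cultures it was higher in mouse 1220 than in mouse 1224. The peripheral library of mouse 1219 held 4 reads of Reg3b and 2 of Reg3g, too few to rank it (66.7%, interval 22.3 to 95.7%). Intervals cover counting error only, since PCR copies are not independent molecules.

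How reads shared between family members were counted is not given in the sources used here, so the split within the Reg3 family is uncertain. The longest coding transcripts of Reg3b (783 bases) and Reg3g (771 bases) were identical at 543 of 747 aligned bases (72.7%), and their longest identical run was 35 bases. Reg3a had 14 reads over all 12 libraries, Reg3d 1 read, Reg4 6 reads and Reg2 0 reads, while Reg1 had 1860 reads. Of the 7 genes of the family list, 3 passed the filter on low counts: Reg3b, Reg3g and Reg1.

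Reg1, a related lectin gene of the same family that is best known from the pancreas, peaked in the same library as the Reg3 pair. It stood at 150.01 CPM in the hilar culture of Ndr mouse 1219, and at 7.84 (1220) and 3.57 (1224) in the others. In WT hilar cultures it held 9.27 (1221), 1.08 (1223) and 0.126 CPM (1225, 1 read), so the groups overlapped. In peripheral cultures it held 0 to 4.55 CPM in WT and 0 to 0.915 CPM in Ndr.

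Region was compared within each mouse, since the hilar and peripheral cultures of a mouse come from 1 animal. Reg3b was higher in the hilar culture in 3 of 3 Ndr mice and in 2 of 3 WT mice. The hilar level was 6174-fold the peripheral one in mouse 1219 (counting interval 2411 to 22662, on 4 peripheral reads), 4.21-fold in 1220 and 13.7-fold in 1224. In WT it was 34.9-fold higher in mouse 1221, while in mouse 1223 the peripheral culture was 5.89-fold higher. WT mouse 1225 had 6 hilar reads and 1 peripheral read, within counting error of no difference (interval 0.863 to 327). The sizes were thus very unequal between mice, and 1 WT mouse went the other way.

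Reg3g had the same directions in the same mice. The hilar level was 2290-fold the peripheral one in mouse 1219 (counting interval 634 to 18914, on 2 peripheral reads), 3.46-fold in 1220 and 9.46-fold in 1224. In WT mouse 1221, with 0 peripheral reads, it was at least 37.3-fold higher, set against 3 reads in that library. In WT mouse 1223 the peripheral culture was 3.39-fold higher. WT mouse 1225 had 3 hilar reads and 1 peripheral read, again within counting error of no difference (interval 0.285 to 187). The log2 difference of region in Ndr was 5.23 (SE 2.11) for Reg3b and 5.30 (SE 1.75) for Reg3g, and in WT 0.03 (SE 1.81) and 0.67 (SE 1.62).

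The genotype difference in hilar minus that in peripheral cultures was 5.20 (SE 2.67) for Reg3b and 4.63 (SE 2.28) for Reg3g on the log2 scale. For Pigr it was -0.47 (SE 1.32), for Slpi 1.15 (SE 0.729) and for Dmbt1 -1.70 (SE 1.66). The interaction of Reg3g turned to -0.87 without the peripheral library of WT mouse 1223, the library that holds most of the peripheral WT reads of the gene. The values describe these libraries, and nothing is read from them about a difference between the genotypes in the effect of region.

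**Figure D2:**
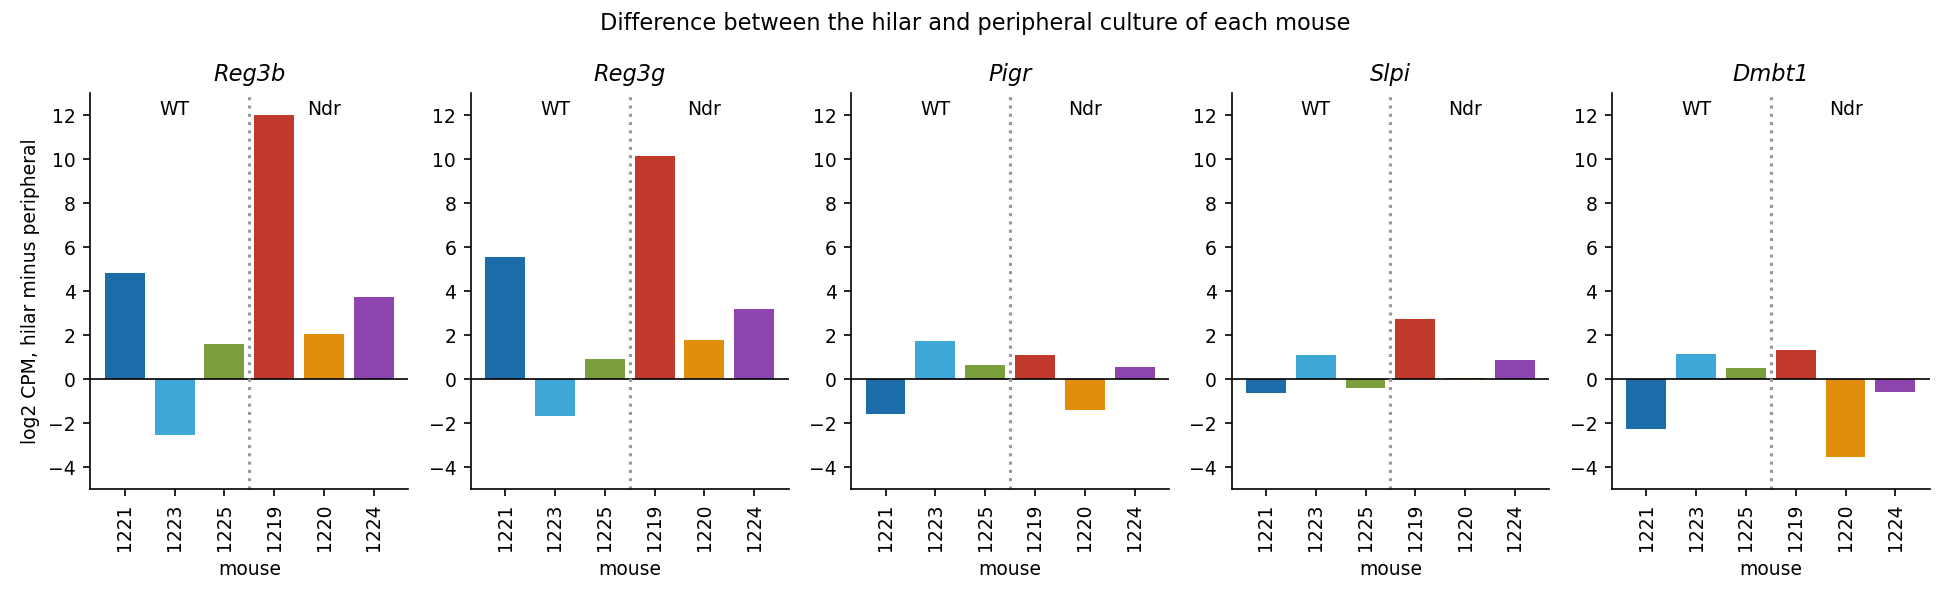
Difference in log2 CPM (prior count 2) between the hilar and the peripheral culture of each mouse; 1 bar per mouse, WT to the left and Ndr to the right of the dotted line. Reg3b and Reg3g are above 0 in all 3 Ndr mice and in 2 of 3 WT mice, with mouse 1219 far above the rest, while Pigr and Dmbt1 go in both directions.

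Pigr (ENSMUSG00000026417, chromosome 1), the receptor that moves IgA, was low in all libraries and lowest in the mutants. The WT hilar cultures held 6.28 CPM (1221), 55.9 (1223) and 5.53 (1225), and the Ndr hilar cultures 3.09 (1219), 0.784 (1220, 6 reads) and 4.09 (1224). All Ndr values were below all WT values, by a narrow margin for mice 1224 and 1225. The means were 22.6 ± 28.9 and 2.65 ± 1.69 CPM, a log2 difference of -3.07 (SE 0.987), which was -1.15 without the hilar library of WT mouse 1223.

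In peripheral cultures Pigr stood at 19.2 CPM (1221), 16.7 (1223) and 3.39 (1225) in WT, against 1.343 (1219), 2.36 (1220) and 2.74 (1224) in Ndr. The groups again did not overlap, and the WT library of mouse 1225 lay close to the Ndr libraries. The means were 13.1 ± 8.49 and 2.15 ± 0.724 CPM, a log2 difference of -2.60 (SE 0.973). Region made no shared direction: Pigr was higher in the hilar culture in 2 of 3 WT and 2 of 3 Ndr mice.

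Slpi (ENSMUSG00000017002, chromosome 2), the elastase inhibitor, had tighter groups than Reg3b, Reg3g or Dmbt1. The WT hilar cultures held 24.5 CPM (1221), 45.9 (1223) and 17.5 (1225), and the Ndr hilar cultures 16.5 (1219), 5.88 (1220) and 14.7 (1224). The highest Ndr value was just under the lowest WT value. The means were 29.3 ± 14.8 and 12.4 ± 5.70 CPM, a log2 difference of -1.24 (SE 0.518), which was -0.76 without the hilar library of WT mouse 1223.

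The gap was wider in peripheral cultures. There Slpi stood at 37.9 CPM (1221), 21.3 (1223) and 23.0 (1225) in WT, and at 2.27 (1219), 5.56 (1220) and 7.87 (1224) in Ndr. Every WT library held more than 2-fold the highest Ndr level. The log2 difference was -2.38 (SE 0.540), and it stayed between -2.80 and -2.03 when each library of the 2 groups was left out in turn. Within Ndr mice Slpi was higher in the hilar culture in 3 of 3, by 7.28-fold in mouse 1219, 1.06-fold in 1220 and 1.87-fold in 1224. The value of mouse 1220 lies within counting error of no difference (interval 0.7 to 1.58). In WT mice the hilar culture was the higher one in 1 of 3.

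Dmbt1 (ENSMUSG00000047517, chromosome 7), the agglutinating scavenger receptor, varied by mouse and culture rather than by group. The WT hilar cultures held 78.1 CPM (1221), 1214 (1223) and 90.2 (1225), and the Ndr hilar cultures 201 (1219), 45.6 (1220) and 55.3 (1224). The peripheral cultures held 369 (1221), 547 (1223) and 63.1 CPM (1225) in WT, and 78.6 (1219), 534 (1220) and 82.1 (1224) in Ndr. In each group 1 or 2 libraries were several fold above the others, so all groups overlapped. For genotype the log2 difference was -2.19 (SE 1.22) in hilar cultures and turned to 0.26 without the hilar library of WT mouse 1223. In peripheral cultures it was -0.49 (SE 1.17). Within mouse 1220 the peripheral culture was 11.7-fold higher, and within mouse 1223 the hilar culture was 2.22-fold higher.

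In mouse totals, where both libraries of a mouse were summed, the same 4 genes kept the genotypes apart. Reg3b summed to 19.3, 24.96 and 0.408 CPM in WT mice 1221, 1223 and 1225, and Reg3g to 5.50, 5.80 and 0.233 CPM, below all Ndr totals. Pigr summed to 11.8, 33.9 and 4.43 CPM in WT against 2.21 (1219), 1.66 (1220) and 3.32 (1224) in Ndr. Slpi summed to 30.4, 32.0 and 20.7 CPM in WT against 9.46, 5.57 and 10.8 in Ndr. The log2 differences were 5.09 (SE 1.58) for Reg3b, 4.59 (SE 1.37) for Reg3g, -2.79 (SE 0.736) for Pigr, -1.69 (SE 0.294) for Slpi and -1.07 (SE 0.901) for Dmbt1. Without mouse 1219 they were 2.93 for Reg3b and 2.36 for Reg3g, and without mouse 1223 that of Pigr was -1.76 and that of Dmbt1 0.34.

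Levels of different genes were compared per kilobase of the longest coding transcript. In Ndr hilar cultures Reg3b came first at 1273 ± 1721 CPM per kb, followed by Reg3g at 238 ± 326, Dmbt1 at 16.03 ± 13.9, Slpi at 14.1 ± 6.50 and Pigr at 0.690 ± 0.440. In WT hilar cultures the order was Dmbt1 at 73.4 ± 104, Slpi at 33.4 ± 16.9, Reg3b at 16.9 ± 21.4, Pigr at 5.87 ± 7.503 and Reg3g at 5.29 ± 6.12 CPM per kb. Of the neighbours in these 2 orders, only Slpi and Pigr in Ndr hilar cultures differed by more than the larger of their SDs. These SDs are between mice and leave out that the genes share libraries. Within each Ndr hilar library Reg3b was above Reg3g, Reg3g above Dmbt1 and Slpi above Pigr, while Dmbt1 and Slpi changed places. In WT hilar cultures no neighbours kept the same order in every library. Among groups, the order of Reg3b was Ndr hilar, Ndr peripheral, WT peripheral and WT hilar, and no neighbours differed beyond the larger SD, although the ranges of Ndr hilar and Ndr peripheral cultures did not overlap. Slpi was ordered WT hilar, WT peripheral, Ndr hilar and Ndr peripheral, and the first 2 did not differ beyond their SD.

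Cultures were derived on different days, and only day 21 of the derivation month has both genotypes, with WT mouse 1225 and Ndr mouse 1224. Within that day there is 1 mouse per genotype, so values are given with counting intervals and no test. Reg3b was 203-fold higher in the Ndr hilar culture (interval 92.8 to 553) and 105-fold higher in the Ndr peripheral culture (18.6 to 4193, on 1 WT read). Reg3g was 124-fold (42.1 to 604, on 3 WT reads) and 46.6-fold higher (8.02 to 1875, on 1 WT read). The Ndr to WT ratio of Pigr was 0.739 in hilar (0.454 to 1.19) and 0.809 in peripheral cultures (0.475 to 1.38). That of Slpi was 0.841 (0.651 to 1.08) and 0.342 (0.263 to 0.441). That of Dmbt1 was 0.613 (0.543 to 0.692) and 1.301 (1.17 to 1.45), in opposite directions in the 2 regions. These intervals leave out the spread between mice, so they do not separate genotype from differences between any 2 mice. Over the other days genotype and day cannot be told apart.

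A second table that the authors deposited holds normalized values, and the genes stand differently in it. There Reg3b read 14122, 8487 and 7658 in the hilar cultures of Ndr mice 1219, 1220 and 1224, and 68.1, 1.47 and 39.3 in those of WT mice 1221, 1223 and 1225. In the peripheral cultures of Ndr mice 1219, 1220 and 1224 it read 0.929, 1311 and 2368, against 0.7999 to 99.2 in those of WT mice. The peripheral groups thus overlapped in these values too. In hilar cultures mouse 1219 stood less far from the other Ndr mice than in the raw counts. In peripheral cultures mouse 1219 stood farther below them than in the raw counts. The values were whole numbers divided by 1 factor per library for 100% of cells within a tolerance of 0.01, and these whole numbers equalled the raw counts in 43.1% of cells. For the 5 genes they were equal only where a library held 0 or 1 read. Reg3b had 122 raw and 2555 recovered reads in the peripheral culture of Ndr mouse 1224, and 43 and 1 in the hilar culture of WT mouse 1223. The step that changed the counts is not given in the sources used here. In that table, in limma-trend on log2(value + 1), the genotype log2 difference of Reg3b was 8.997 in hilar and 4.67 in peripheral cultures, and that of Reg3g 7.49 and 4.25. For Pigr it was -0.09 and -0.03, and for Slpi -0.39 and -1.60. The low Pigr level of the Ndr cultures is therefore seen in the raw counts and not in the deposited normalized values, while the Reg3 pair differed more in the latter.

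**Figure D3:**
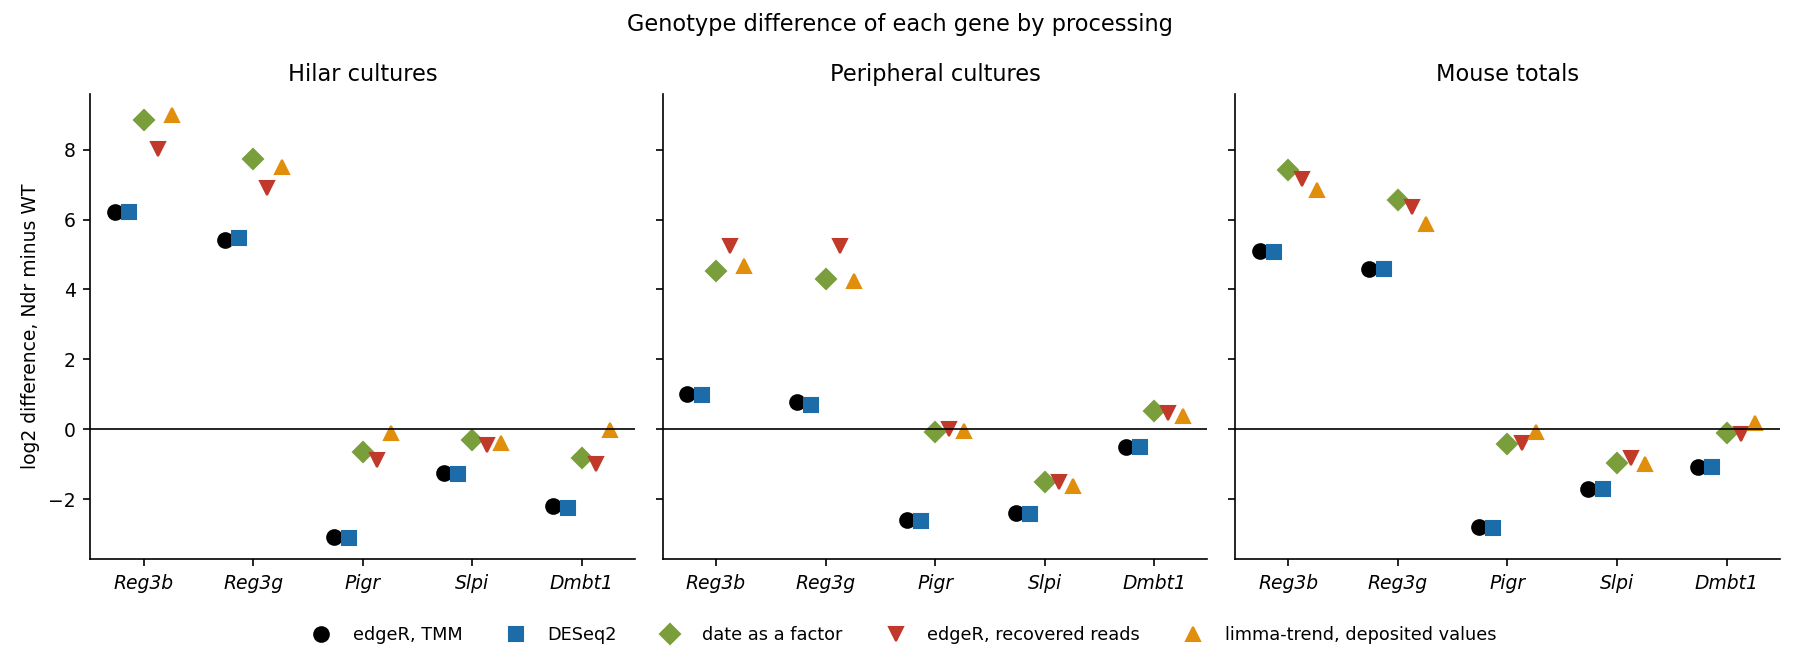
Log2 difference between Ndr and WT for each gene in hilar cultures, peripheral cultures and mouse totals, under 5 ways of processing; positive is higher in Ndr. Reg3b and Reg3g are above 0 in all settings drawn, Pigr moves from near -3 towards 0 when derivation date is a factor or the deposited values are used, and peripheral Slpi stays below -1.

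Across the 12 libraries the 5 genes fell into 2 patterns. Pearson's r of log2 CPM was 0.98 between Reg3b and Reg3g, 0.83 between Pigr and Slpi, 0.73 between Pigr and Dmbt1 and 0.42 between Slpi and Dmbt1. Between a Reg3 gene and the other genes r ranged from -0.24 to 0.04. The libraries share mice, groups and sequencing depth, and r is given as a description over n = 12 libraries.

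**Figure D4:**
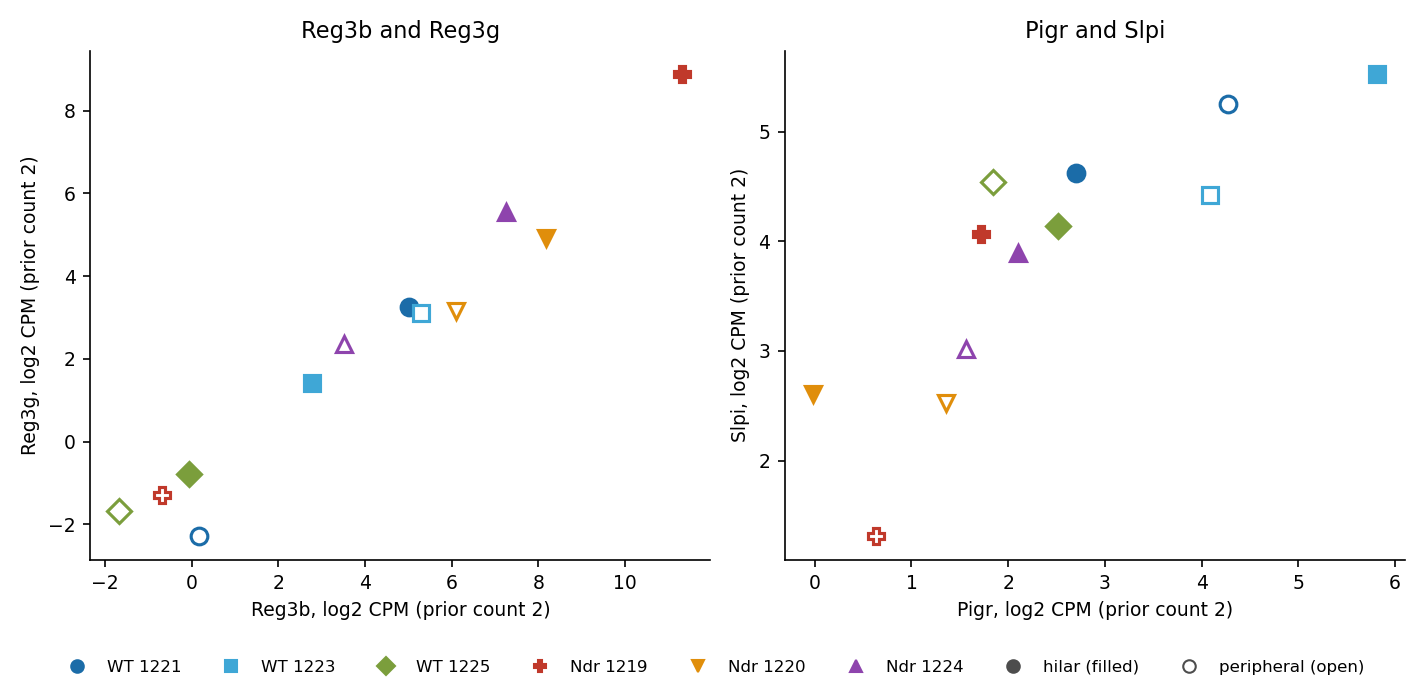
Log2 CPM (prior count 2) of Reg3b against Reg3g and of Pigr against Slpi; each point is 1 library, filled for hilar and open for peripheral cultures. The Reg3 pair lies along 1 line over the whole range, and the Ndr peripheral libraries lie in the lower left for Pigr and Slpi.

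Among 11834 genes of at least 5 CPM on average, the patterns most like that of Reg3b were those of Smim10l1 (r = 0.94), Lin52 (0.93) and Ccdc126 (0.93). Those most like Reg3g were Reg1 (0.92), Morn2 (0.92) and Zfp868 (0.91). Apart from Reg1 these genes moved over a narrow range: Smim10l1 averaged 147 ± 1.73 CPM in Ndr hilar and 106 ± 11.8 CPM in WT hilar cultures. For Pigr they were Pgm3 (0.90), 4930523C07Rik (0.90) and the chemokine gene Ccl20 (0.88). For Slpi they were Pgm3 (0.90), the cathepsin C gene Ctsc (0.88) and Rgs16 (0.86). Ctsc, which activates neutrophil serine proteases, averaged 253 ± 116 and 285 ± 78.8 CPM in WT hilar and peripheral cultures, and 114 ± 27.9 and 132 ± 49.2 CPM in Ndr. For Dmbt1 they were Gm12411 (0.87), Gm15013 (0.87) and 2610001J05Rik (0.85), which differed little between groups.

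Other genes of mucosal defence were read from lists of 239 symbols in all, each of which matched an identifier. In edgeR's test with Benjamini-Hochberg adjustment 0 genes of any list were called in any comparison. Among the antimicrobial proteins, 11 of 30 genes passed the filter on low counts, and their median log2 difference between genotypes was -1.20 in hilar and -0.87 in peripheral cultures, against 0.00 and 0.03 over all genes tested. At an unadjusted p under 0.05, 0 of the 11 were higher and 2 lower in hilar cultures, where 6.54% of all genes passed, and 0 were higher and 1 lower in peripheral cultures, where 2.92% did. The most abundant were Lcn2, which binds bacterial siderophores, and Sprr2a1. Lcn2 averaged 4007 ± 3611 and 2815 ± 858 CPM in WT and Ndr hilar cultures, and 4183 ± 1280 and 1568 ± 1978 CPM in peripheral ones. Sprr2a1 averaged 1406 ± 1249 and 1729 ± 1594 CPM in hilar, and 877 ± 277 and 3311 ± 3359 CPM in peripheral cultures. The groups of both genes overlapped in both regions. The Paneth cell genes Lyz1, Ang4 and Pla2g2a had 0 reads in all libraries.

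In the list of WFDC and other serine protease inhibitors, 7 of 14 genes passed the filter, and their median log2 difference was 0.20 in hilar and 0.18 in peripheral cultures. The low Slpi level was therefore not a feature of the list's median. Spint2 averaged 686 ± 116 and 787 ± 179 CPM in WT and Ndr hilar cultures, and Wfdc2 averaged 827 ± 343 and 612 ± 335 CPM. DESeq2 called Serpinb1a, an intracellular inhibitor of neutrophil proteases, in mouse totals (log2 1.87, adjusted p = 0.0153 in DESeq2, 0.759 in edgeR). It is named after its values were seen, as are the other genes below that DESeq2 alone called.

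Among the scavenger receptors and secreted lectins 4 of 12 genes passed the filter, with median log2 differences of -0.99 and -0.16. Sftpd, the collectin surfactant protein D, averaged 470 ± 299 and 449 ± 187 CPM in WT and Ndr hilar cultures and 489 ± 185 and 201 ± 33.4 CPM in peripheral ones. In immunoglobulin transport, 3 of 5 genes passed. Fcgrt, the neonatal Fc receptor that carries IgG, went the other way from Pigr in hilar cultures, at 18.2, 21.3 and 17.4 CPM in Ndr mice 1219, 1220 and 1224 against 9.57, 2.47 and 2.14 in WT mice 1221, 1223 and 1225. The Fcgrt log2 difference there was 1.97 (SE 0.557), and in peripheral cultures it was 0.01 (SE 0.546). Jchain, the chain that joins the IgA that Pigr carries, had 4 reads over all 12 libraries.

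All 10 complement genes of the list passed the filter, and their median log2 difference was -0.05 in hilar and -0.94 in peripheral cultures. C3, the central complement component, averaged 1615 ± 1476 and 1578 ± 824 CPM in WT and Ndr hilar cultures, and 2338 ± 1088 and 794 ± 893 CPM in peripheral ones. DESeq2 called Cfi, a protease that inactivates complement, for region in Ndr, the direction in which the Reg3 pair was also high. Cfi stood at 315, 274 and 125 CPM in the hilar cultures of mice 1219, 1220 and 1224 and at 44.3, 19.0 and 22.2 CPM in the peripheral ones (log2 3.07, adjusted p = 0.0244 in DESeq2, 0.418 in edgeR).

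Of the cytokine and Toll-like receptor genes that lead to these secretions, 35 of 36 passed the filter. Their median log2 difference was -0.13 in hilar and -0.27 in peripheral cultures, with 14 and 7 of the 35 above 0. At an unadjusted p under 0.05, 1 of the 35 was higher and 4 lower in hilar cultures (6.54% of all genes), and 0 were higher and 1 lower in peripheral cultures (2.92%), a count near that share. The most abundant were the interferon gamma receptor gene Ifngr1, at 402 ± 180 and 410 ± 131 CPM in WT and Ndr hilar cultures, and Il6st, the shared receptor chain of the IL-6 family, at 218 ± 119 and 291 ± 135 CPM. Both genes overlapped between the genotypes in hilar cultures. In peripheral cultures Ifngr1 stood at 380, 415 and 448 CPM in WT mice 1221, 1223 and 1225 and at 307, 302 and 302 CPM in Ndr mice 1219, 1220 and 1224, so that the groups did not overlap (log2 -0.45, SE 0.337). DESeq2 called Il33, an alarmin gene, in hilar cultures. Il33 stood at 5.37 (1221), 34.1 (1223) and 184 CPM (1225) in WT and at 6.29 (1219), 2.87 (1220) and 2.94 (1224) in Ndr. The groups overlapped, and the WT mean rests on mouse 1225 (DESeq2 log2 -4.24, adjusted p = 0.00952, and 0.75 in edgeR). DESeq2 also called Il1rap, a receptor chain for IL-1 and IL-33, in mouse totals (log2 -1.25, adjusted p = 0.00151 in DESeq2, 0.437 in edgeR).

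Among the epithelial regulators 15 of 18 genes passed, with median log2 differences of 0.09 and -0.10. Hnf4a averaged 178 ± 39.3 and 175 ± 50.5 CPM in WT and Ndr hilar cultures, and Klf5 144 ± 16.02 and 183 ± 43.5 CPM. DESeq2 called Foxa3 in mouse totals (log2 1.03, adjusted p = 0.00322 in DESeq2, 0.453 in edgeR). For region in Ndr it called Cdx2, an intestinal regulator, which was lower in hilar cultures (log2 -3.07, adjusted p = 0.0342 in DESeq2, 0.418 in edgeR). Of the Notch genes 8 of 9 passed, with median log2 differences of 0.09 and -0.33. Beside Jag1, the most abundant was Sox9, at 158 ± 54.0 and 169 ± 74.2 CPM in WT and Ndr hilar cultures. Nrarp, a feedback target of Notch, was called by DESeq2 for region in Ndr, where it stood at 1.64, 0.914 and 2.68 CPM in the hilar and 3.93, 6.04 and 7.87 CPM in the peripheral cultures of mice 1219, 1220 and 1224 (log2 -1.76, adjusted p = 0.0342 in DESeq2, 0.418 in edgeR).

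**Figure D5:**
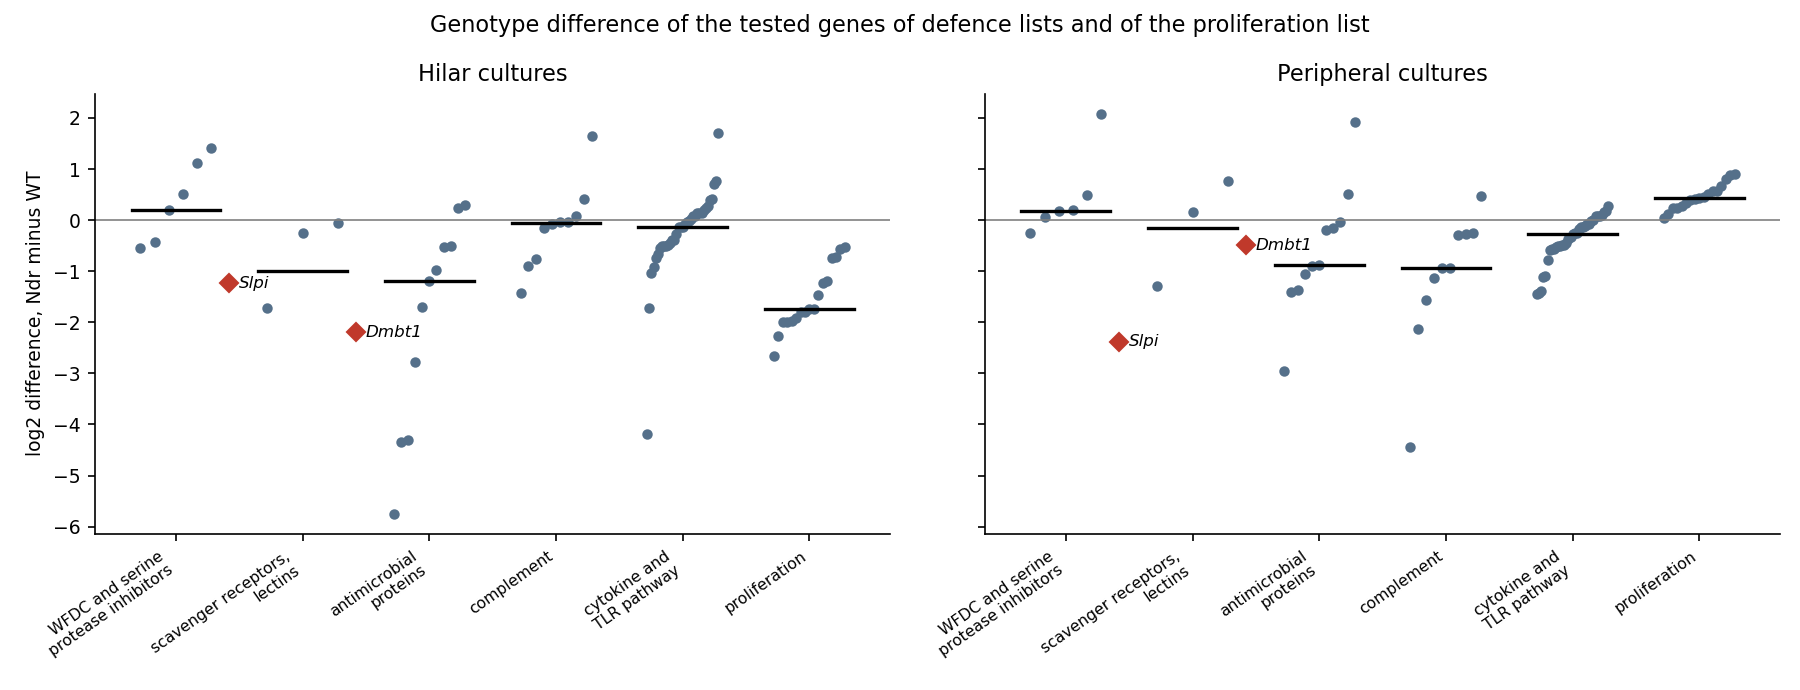
Log2 difference between Ndr and WT in hilar and in peripheral cultures for the tested genes of 6 lists; each circle is 1 gene, red diamonds are Slpi and Dmbt1, and black lines are list medians. Slpi lies below the other genes of its list in both regions, and the proliferation genes lie below 0 in hilar and above 0 in peripheral cultures.

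The labelled cell type was seen in its markers. Of 14 cholangiocyte markers 13 passed the filter on low counts, and Sctr had 2 reads over all 12 libraries. The summed level was 12536 to 14235 CPM in Ndr hilar, 11763 to 18725 in WT hilar, 12428 to 14983 in WT peripheral and 10710 to 20003 CPM in Ndr peripheral cultures. The keratin genes were lower in the hilar than in the peripheral Ndr cultures: Krt18 averaged 1716 ± 272 against 2818 ± 298 CPM, without overlap, and Krt19 averaged 431 ± 203 against 1895 ± 986 CPM. In bulk RNA, fewer cells of a kind and less RNA per cell cannot be told apart. Several levels moved with the groups in which the Reg3 pair was high. The summed level of 17 proliferation genes was 396 to 719 CPM in Ndr hilar cultures and 1102 to 1944 CPM in Ndr peripheral cultures. In WT it was 472 to 2756 CPM in hilar and 938 to 1184 CPM in peripheral cultures. Top2a averaged 67.1 ± 19.7 CPM and Mcm6 99.7 ± 9.40 CPM in Ndr hilar cultures, against 257 ± 57.3 and 166 ± 14.4 CPM in Ndr peripheral ones. DESeq2 called Plk1 in the genotype comparison of hilar cultures (log2 -2.69, adjusted p = 0.0322 in DESeq2, 0.75 in edgeR), where WT mouse 1225 stood at 86.7 CPM. The part of proliferation in the Reg3 levels was not tested.

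Among the other organs and cells known for these genes, most pancreatic acinar and Paneth markers were without reads. Most goblet and enterocyte markers had some reads. Of 12 pancreatic acinar markers, 10 had 0 reads in all libraries, among them Cpa1, Cpb1, Ctrb1, Pnlip and Ptf1a. The summed acinar level was 0.914 to 6.67 CPM in Ndr hilar, 1.13 to 2.94 in WT hilar, 1.55 to 1.70 in WT peripheral and 2.27 to 4.06 CPM in Ndr peripheral cultures, nearly all of it Cela1. Of 6 Paneth markers 4 had 0 reads, and the sum, 282 to 2535 CPM per library, was Mmp7, which bile duct cells also express. Of 8 goblet markers, Zg16 and Atoh1 had 0 reads, and the sums were 5.88 to 9.58 CPM in Ndr hilar, 2.62 to 7.16 in WT hilar, 4.24 to 6.97 in WT peripheral and 3.02 to 18.3 CPM in Ndr peripheral cultures. Of 10 enterocyte markers, Sis and Apoa4 had 0 reads, and the sums were 88.0 to 144 CPM in Ndr hilar, 145 to 209 in WT hilar, 169 to 211 in WT peripheral and 165 to 302 CPM in Ndr peripheral cultures. The enterocyte sums, mostly Vil1, were thus lowest where the Reg3 pair was high, by a narrow margin between Ndr hilar and WT hilar cultures. The goblet sums overlapped between the groups.

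Among 12 immune markers, Ms4a1, Ighm and Adgre1 had 0 reads, Ptprc had 2 reads over all libraries, and the sums, mostly Cd14, were 794 to 822 CPM in Ndr hilar, 186 to 870 in WT hilar, 356 to 609 in WT peripheral and 430 to 998 CPM in Ndr peripheral cultures. Of 12 hepatocyte markers Cps1 had 0 reads. The hepatocyte sums were 54.7 to 98.0 CPM in Ndr hilar, 6.41 to 63.3 in WT hilar, 12.9 to 55.0 in WT peripheral and 14.0 to 41.4 CPM in Ndr peripheral cultures. The lowest Ndr hilar sum was below the highest WT hilar one. In hilar cultures 2 of the 5 hepatocyte markers that passed the filter were higher in Ndr than in WT. The median log2 difference of the 5 was -1.13. Ttr, which DESeq2 called in hilar cultures, was higher, at 42.8 ± 15.4 CPM in Ndr and 4.91 ± 2.86 CPM in WT. The part of such RNA in the Reg3 levels was not tested. Of 10 fibroblast and stellate markers, Dcn and Thy1 had 0 reads, and the sums were 1.96 to 3.48 CPM in Ndr hilar, 5.15 to 53.2 in WT hilar, 5.38 to 563 in WT peripheral and 3.02 to 1975 CPM in Ndr peripheral cultures, mostly Vim. Vim was lower in each of the 3 Ndr hilar libraries, at 2.51 (1219), 1.31 (1220) and 0.638 CPM (1224), than in any other library. DESeq2 called Vim for region in Ndr (log2 -8.80, adjusted p = 0.00524 in DESeq2, 0.418 in edgeR) and over both genotypes (adjusted p = 0.0205 in DESeq2, 0.786 in edgeR). The peripheral Vim levels of Ndr mice 1219, 1220 and 1224 were 3.72, 2.83 and 1974 CPM, the last being the highest of all libraries. The size of the Vim difference for region in Ndr therefore rests largely on mouse 1224. Col1a1, the other marker of the list that passed the filter, had a log2 difference of 1.12 for region in Ndr. The part of Vim in the Reg3 levels was not tested. Of 6 endothelial markers Kdr and Emcn had 0 reads, and the sums were at most 0.53 CPM. Of 6 tuft cell markers Il25 and Gfi1b had 0 reads, and the sums, mostly Dclk1, were 17.4 to 41.3 CPM in Ndr hilar, 15.7 to 43.3 in WT hilar, 23.8 to 48.4 in WT peripheral and 2.07 to 28.3 CPM in Ndr peripheral cultures. DESeq2 called Dclk1 for genotype in mouse totals, lower in Ndr (log2 -0.98, adjusted p = 2.66e-06 in DESeq2, 0.277 in edgeR). Its log2 difference between genotypes was 0.09 in hilar and -1.87 in peripheral cultures. Of the 3 tuft markers tested in mouse totals 2 were higher in Ndr, with a median log2 difference of 0.16. The part of Dclk1 in the Pigr and Slpi levels was not tested.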

How the data were processed

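RNA sequencing counts of 12 organoid cultures were used. The authors deposited raw counts per gene. The submitters' processing notes name featureCounts, GRCm39 and DESeq2 1.34.0. They also deposited normalized values, a signal that is a whole number divided by 1 factor per library. Aligner, annotation, strand setting and the treatment of multi-mapping reads are not given in the sources consulted. Names came from a GRCm38 annotation, which named 52093 identifiers and left 1607 unnamed.

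Raw counts were filtered (filterByExpr), TMM-scaled and fitted over all 4 groups in edgeR 4.0.16 (quasi-likelihood test, R 4.3.3) with Benjamini-Hochberg adjustment at 0.05, leaving 8 residual degrees of freedom. Mouse totals, the summed counts of the 2 libraries of a mouse, were fitted separately with 4. The replicates of a group are separate mice. DESeq2 1.42.0, limma 3.58.1, a replicate block, derivation date, no filter and leaving out each library were alternatives, and the reads recovered from the normalized table were added after seeing the data. The fit across genes was tested on simulated data. With 3 mice against 3, an exact permutation test cannot go below p = 0.1.

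The genes and lists were chosen with earlier results of these data known. Named beside the 5 genes are list genes that passed the adjusted test (up to 4 a list), or the 2 most abundant tested genes of a list with none, the 3 genes of highest Pearson r with each of the 5, and Jag1; some list genes are not reported here. Mouse numbers pair the libraries because both come from 1 animal, while the correlation of their deviations ran from -0.34 to 0.45 over the 6 mice.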

Additional observations from a re-analysis of the deposited data

How the results depend on the processing

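The edgeR test called 0 of the 5 genes in every comparison. With a replicate block for the mouse it also called 0 for the comparisons of region and for the interaction. The genotype comparisons of hilar and of peripheral cultures were fitted with that block in limma-voom instead (correlation within mice -0.135), and 0 were called. In hilar cultures 2 of the 5 were called for genotype on recovered reads, and in peripheral cultures 1 in DESeq2. In mouse totals 2 were called in DESeq2, 3 in limma-trend on the deposited values and 3 on recovered reads. With date as a factor, the genotype difference of mouse totals is that of Ndr mouse 1224 against WT mouse 1225. No count is given for that setting. Over all genes, DESeq2 called 42 (hilar genotype), 6 (peripheral genotype), 72 (region in Ndr), 3 (region over both genotypes), 4 (interaction) and 113 (mouse totals), in the order in which limma-trend on the deposited values called 1446, 93, 9, 4, 2 and 6106. Recovered reads gave 1514 for hilar genotype, 126 for peripheral genotype, 5 for region in WT, 30 for region in Ndr and 6753 for mouse totals. Mouse totals gave 5 without a filter. Leaving out 1 library gave 0 to 2 for peripheral genotype and 0 to 7 for region in Ndr, with the highest count without the peripheral library of Ndr mouse 1219, and leaving out a mouse gave 0 to 4 for totals, the highest without mouse 1219. The cause of these changes was not tested. Of 220 log2 differences under other settings, 194 moved by less than the spread between replicates and 9 changed sign. Of 390 with a library or a mouse left out, 377 moved by less and 21 changed sign, most of them of Dmbt1 or of region in WT. That spread is wide, with an SD of log2 CPM of 2.13 to 3.62 over the groups for Reg3b. Many of the libraries left out belong to groups that the comparison does not use. These counts are therefore no measure of stability. Low counts limit Reg3g and Reg3b in peripheral cultures, where 3 libraries held 0 to 2 reads of Reg3g.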
